A study of Mus musculus with 118 samples.

Results

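The 4 myogenic bHLH genes, Myf5, Myod1, Myf6 (Mrf4) and Myog, were examined for Polycomb binding in mouse embryonic stem cells. They are the whole of this gene family, and they were taken by name from the 26180 mouse genes that carry at least 1 curated RefSeq transcript on GRCm38.p6, the patched form of the mm10 build on which the peak positions were given. A promoter was taken as the transcription start site with 2500 bp on each side, and a gene was counted as bound when a peak shared at least 1 bp with it. The binding data were 3 lists of peaks, for RING1B, SUZ12 and PCGF2. On these terms the family was split: Myod1 had a peak of all 3 proteins, Myog had a peak of RING1B alone, and Myf5 and Myf6 had none.

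Skeletal muscle identity rests on these basic helix-loop-helix transcription factors, which pair with the widely expressed E proteins and bind E-box sequences in muscle genes. Myf5 and Myod1 commit cells to the muscle lineage, Myf6 acts in both commitment and fibre maturation, and Myog drives terminal differentiation of myoblasts. In embryonic stem cells the muscle lineage has not been entered, and many genes of later lineages carry Polycomb proteins at CpG-rich promoters. RING1B is the catalytic E3 ligase of Polycomb repressive complex 1 (PRC1), which monoubiquitylates histone H2A. PCGF2 is a subunit that marks the canonical form of PRC1, and SUZ12 is a core subunit of PRC2, the complex that methylates lysine 27 of histone H3.

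The series holds 118 samples in 42 groups, libraries of spike-in calibrated chromatin immunoprecipitation sequencing (cChIP-seq) or its input from engineered stem cell lines with and without tamoxifen, which activates an inducible Cre recombinase. The peak lists come from untreated cells only. In untreated PRC1CPM cells each of the 3 proteins had 3 samples, and SUZ12 had 3 more in untreated PRC1CKO cells. The study asked what the catalytic activity of PRC1 contributes to gene repression, and these lists give the sites at which Polycomb proteins were found before that activity was removed. PRC1CPM is clone 41 of an E14 stem cell line. Its Ring1a gene encodes the I50A and D53K substitutions, its Ring1b alleles can be switched from wild type to an I53A and D56K form, and ERT2-Cre is expressed from Rosa26. PRC1CKO is clone B9 of the same E14 background, with Ring1a deleted, floxed Ring1b alleles and the same ERT2-Cre. Both lines therefore had an altered Ring1a and an intact Ring1b before tamoxifen, and each is a single clone.

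Every list pools or intersects its samples, so no value in it has a replicate error, no test between samples could be made, and the read depth behind a peak is unknown. A peak gives a position and a width but no height. That the cells are stem cells could not be checked from peak positions. A gene without a peak is one that is not in the list, and the signal at that gene was not analysed here. The RING1B list also leaves out sites whose signal did not fall significantly when tamoxifen removed PRC1 from PRC1CKO cells, so that a gene can be missing from it for that reason.

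The sequences below show the bases just before the start sites of Myog, which has RING1B alone, and Myf5, which has none of the proteins, and what lies under the narrow peak at Myog. All are written 5′ to 3′ on the coding strand in lower case, with CpG dinucleotides in capitals. The promoters are the 250 bases before the start site as given by RefSeq for GRCm38.p6, at chr1:134289754-134290003 (plus strand) for Myog and at chr10:107486135-107486384 (minus strand) for Myf5. The last is the stretch of 200 bases with the most CpGs inside the RING1B peak at Myog, at chr1:134290313-134290512 (plus strand), which lies wholly in the coding sequence of exon 1.
Myog promoter: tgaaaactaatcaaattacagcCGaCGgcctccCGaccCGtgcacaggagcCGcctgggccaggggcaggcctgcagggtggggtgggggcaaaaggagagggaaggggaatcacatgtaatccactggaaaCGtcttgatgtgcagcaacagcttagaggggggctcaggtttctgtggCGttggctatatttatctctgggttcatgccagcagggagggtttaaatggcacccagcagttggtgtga
Myf5 promoter: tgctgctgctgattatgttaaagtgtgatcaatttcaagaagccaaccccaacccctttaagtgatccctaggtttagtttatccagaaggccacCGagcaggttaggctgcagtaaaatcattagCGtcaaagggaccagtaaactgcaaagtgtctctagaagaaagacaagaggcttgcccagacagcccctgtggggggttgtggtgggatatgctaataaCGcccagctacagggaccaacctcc
Myog, under the RING1B peak: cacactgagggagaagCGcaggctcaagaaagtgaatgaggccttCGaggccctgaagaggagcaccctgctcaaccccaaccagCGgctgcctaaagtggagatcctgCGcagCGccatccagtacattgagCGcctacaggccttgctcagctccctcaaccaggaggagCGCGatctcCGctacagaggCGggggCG

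The 250 bases before Myog held 7 CpGs and those before Myf5 held 3, against a median of 6 over 32851 RefSeq promoters of mouse genes. Fewer CpGs than these were found in 53.7% of promoters for Myog and in 29.0% for Myf5. In the wider window of 2500 bp on each side this order was reversed, with 71 CpGs at Myog and 101 at Myf5. The 11 CpGs in the exon 1 stretch of Myog, which was picked for having the most, gave an observed/expected ratio of 0.572, and the ratio was 0.372 in its 250-base promoter. The CpG observed/expected ratio is the number of CpGs divided by the number that the C and G content alone would give. The stretch lay 309 to 508 bp downstream of the start site. Exon 1 of the myogenic bHLH genes encodes the DNA-binding and dimerisation domain of the protein.

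The E-box, written CANNTG, was searched on both strands of the same 250 bases. Myog had 2 matches, CACATG at 138 to 133 bp and CAGTTG at 12 to 7 bp upstream of the start site, whereas Myf5 had 0. At least 1 match was found in 66.2% of the 32851 promoters, so its presence at Myog was common. The E-box variant CAGCTG, which is included in CANNTG, was found in neither promoter and in 13.0% of all promoters. TATAAA was also found in neither, against 12.4% of all promoters.

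Of the 4 members, 2 had a RING1B peak at the promoter, against 53.2% of all 26180 genes and 58% of 20229 protein-coding genes. A SUZ12 peak was found at 1 of 4, with 24.8% of all genes bound, and a PCGF2 peak also at 1 of 4, with 13.5% bound. All 3 proteins were together at 1 member and at 13.4% of all genes. RING1B without SUZ12 or PCGF2 was found at 1 member and at 28.6% of genes, and none of the 3 proteins at 2 members and at 46.5% of genes. Among protein-coding genes alone these shares were 27.5% for SUZ12, 14.8% for PCGF2, 14.7% for all 3, 30.8% for RING1B alone and 41.7% for none. In gene bodies in place of promoters, the same members were bound, 2 by RING1B, 1 by SUZ12 and 1 by PCGF2, against 53.5%, 24.7% and 13.8% of all genes. With 4 members, these counts lie near the shares over all genes and show nothing particular to the family as a whole. Its members differed from each other: no class of binding held more than a pair of them, and that pair, Myf5 and Myf6, are neighbours on 1 chromosome.

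**Figure D1:**
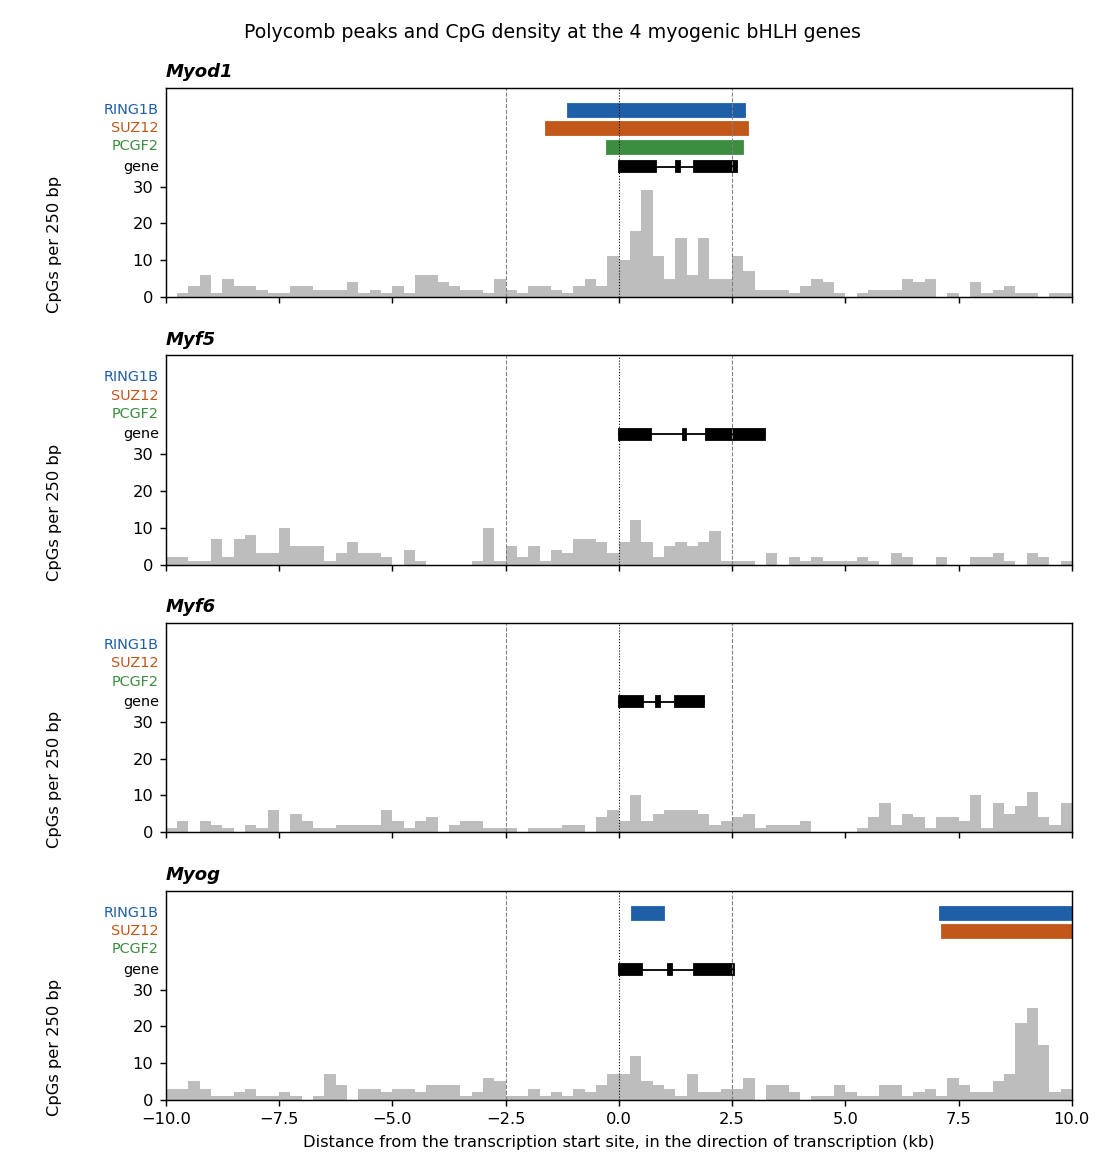
Map of 10 kb on each side of the start site of each myogenic bHLH gene, oriented by transcription, with peaks of the 3 lists as coloured blocks, exons as black blocks and the number of CpGs in each 250 bp as grey bars; dashed lines mark the promoter window of 2500 bp on each side. Peaks of all 3 lists covered Myod1, a RING1B peak of 726 bp lay downstream of the Myog start site, and no peak lay near Myf5 or Myf6.

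Myf5, the earliest of the factors to be expressed in the embryo, lies on the minus strand at chr10:107482908-107486134, spans 3227 bp and has 3 exons. No peak of RING1B, SUZ12 or PCGF2 overlapped its promoter or its body. Nor did any peak lie within 100 kb of its start site. The nearest peaks were 211.8 kb away for RING1B, 211.4 kb for SUZ12 and 212.1 kb for PCGF2, and each of them contained the start site of Lin7a, which encodes a scaffold protein of cell junctions. For comparison, the median distance from a gene to the nearest RING1B peak was 0.133 kb, and 12.0% of genes were farther from one than Myf5. For PCGF2, whose peaks are sparser, the median was 158.9 kb and 42.2% of genes were farther away. Myf5 was thus remote from RING1B compared with most genes and less unusual in its distance from PCGF2. These comparisons are with all genes, of which 53.2% had RING1B at the promoter itself, and not with unbound genes alone.

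Myf6 lies upstream of Myf5 on the same strand, at chr10:107492848-107494723, with 3 exons over 1876 bp. The start sites of the pair are 8.589 kb apart and 6.713 kb separate the genes, so that their neighbourhoods are largely the same and they do not count as independent observations. As at Myf5, the promoter and body of Myf6 held no peak of any list and none lay within 100 kb. The nearest RING1B peak, again that of Lin7a, was 220.4 kb away, and 11.7% of genes were farther from such a peak. The genes that flank the pair differ from each other: Lin7a, 57.8 kb beyond Myf5, had all 3 proteins at its promoter, and Ptprq, a receptor phosphatase gene 19.6 kb beyond Myf6, had none. The peak-free stretch around the pair covered Myf5, Myf6 and the parts of Ptprq and Lin7a within 100 kb.

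Myod1 lies on the plus strand at chr7:46376474-46379092, with 3 exons over 2619 bp. The RING1B peak at its promoter ran from 46375343 to 46379249 (3907 bp), which is from 1.131 kb upstream to 2.775 kb downstream of the start site. The SUZ12 peak was wider, from 46374864 to 46379319 (4456 bp), and began 1.61 kb upstream. The PCGF2 peak was the narrowest of the 3, from 46376206 to 46379210 (3005 bp), and began 0.268 kb upstream. Each peak contained all 3 exons, both introns and the untranslated regions, so that 100% of the gene body was covered in every list. A gene body covered wholly by peaks of all 3 lists was seen at 414 of 26180 genes, which is 1.58%. Myod1 is a short gene, and gene length was not taken into account in this share.

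The lists were made by different rules, which can set the width of a peak, so edges of different lists at Myod1 are given beside the same measure over other genes. The 3 peaks at Myod1 nearly shared their downstream edge and differed at their upstream edge. Downstream of the gene they ended within 109 bp of each other, 157 bp past the transcript end for RING1B, 227 bp for SUZ12 and 118 bp for PCGF2. Upstream, SUZ12 began 479 bp before RING1B and 1342 bp before PCGF2. Among the 3508 genes with all 3 proteins, SUZ12 ran past the end of PCGF2 by a median of 1157 bp, and 11.0% of these genes had a smaller value than the 109 bp at Myod1. On the upstream side the 1342 bp at Myod1 was close to the class median of 1023 bp. The PCGF2 peak reached 0.268 kb upstream of the start site, whereas its start in the class had a median of 1065.5 bp upstream, and 83.0% of the class began farther upstream. PCGF2 at Myod1 thus covered the transcribed region with little of the upstream promoter.

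In width the Myod1 peaks were ordinary for genes with all 3 proteins. The RING1B peak of 3907 bp compares with a class median of 4869.5 bp, the SUZ12 peak of 4456 bp with 5349 bp, and the PCGF2 peak of 3005 bp with 2885 bp. Within the RING1B list as a whole, in which narrow peaks are common, 86.1% of peaks were narrower than that at Myod1, against 71.2% in the SUZ12 list and 59.4% in the PCGF2 list. The 3 genes whose 6 peak edges lay nearest to those of Myod1, among 3507 others with all 3 proteins, were Ppp1r3g, Sfmbt1 and Zfp711. Their mean absolute difference from Myod1 over the 6 edges was 94 bp, 100 bp and 162 bp. In Sfmbt1, for example, the peaks began 1150, 1666 and 61 bp upstream for RING1B, SUZ12 and PCGF2 and ended between 2735 and 3008 bp downstream.

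Myog lies on the plus strand at chr1:134290004-134292548, with 3 exons over 2545 bp. Its RING1B peak ran from 134290286 to 134291011, a width of 726 bp, and lay wholly within the gene. It covered the last 241 bp of exon 1, all coding, and 485 bp of intron 1, and 0 bp of exons 2 and 3. This was 28.5% of the gene body and 14.5% of the promoter window, against 100% and 72.6% for RING1B at Myod1. The start site itself was not under the peak, which began 282 bp downstream of it. Among the 7498 genes with RING1B alone, the peak began at a median of 538.5 bp upstream, and 97.2% of them had a peak that began farther upstream than that of Myog. It was also narrow, as 19.0% of the class had a narrower peak, with a class median of 1216.5 bp.

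Myog is therefore counted as bound only by a peak inside the gene, and this depends on how a promoter is defined. When the peak had to contain the start site, or when peaks under 1000 bp were left out, the number of members with RING1B was 1, Myod1, in place of 2. The 3 genes with RING1B alone whose 2 peak edges were most like those of Myog, among 7497, were Pafah1b2, 1110020A21Rik and Laptm4a, which differed from it by a mean of 20, 23.5 and 39 bp. Their promoter CpG observed/expected ratios were 0.475, 0.631 and 0.470, all above the 0.206 of Myog.

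The neighbourhood of Myog held more RING1B peaks than that of any other member. Within 100 kb of the start site there were 8 RING1B peaks, 3 SUZ12 peaks and 1 PCGF2 peak. At Myod1 there were 2, 3 and 2, and at Myf5 and Myf6 there were none in any list. The same count over all genes is not given here, so whether 8 is unusual cannot be said. Of the RING1B peaks around Myog, those of 479, 968, 726, 829 and 1317 bp overlapped no SUZ12 or PCGF2 peak. The SUZ12 peak nearest to Myog began 7.123 kb downstream of its start site and was 3539 bp wide, and it overlapped a RING1B peak of 3103 bp. Both lay in the 3′ part of Ppfia4, a liprin gene on the opposite strand, and neither contained a start site. They were outside the promoter window of Myog at 2500 bp and also at 5000 bp.

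The PCGF2 peak nearest to Myog was 53.5 kb away, at the start site of Adora1, the gene of the A1 adenosine receptor. At that site RING1B extended over 8479 bp and SUZ12 over 9111 bp, wider than any peak at a member. Ppfia4, 4.234 kb beyond the 3′ end of Myog, had RING1B alone at its own promoter, with a peak of 1317 bp. Myoparr, a non-coding RNA gene on the opposite strand, starts 0.243 kb upstream of Myog, so the promoter windows of these genes overlap and both contain the peak in Myog.

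Around Myod1 the peaks were fewer. Kcnc1, a potassium channel gene whose body begins 17.4 kb past the end of Myod1, had peaks of all 3 proteins over its start site, and these were wider than those at Myod1, 5748 bp for RING1B, 6572 bp for SUZ12 and 3967 bp for PCGF2. On the other side, 28.2 to 26.4 kb upstream of Myod1, a SUZ12 peak of 1873 bp overlapped no peak of RING1B or PCGF2. It held 55 CpGs, or 29.4 per kb, fewer than the 36.6 per kb of the SUZ12 peak at Myod1. Otog, the nearest protein-coding gene upstream, ends 65.0 kb away and had none of the 3 proteins at its promoter.

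**Figure D2:**
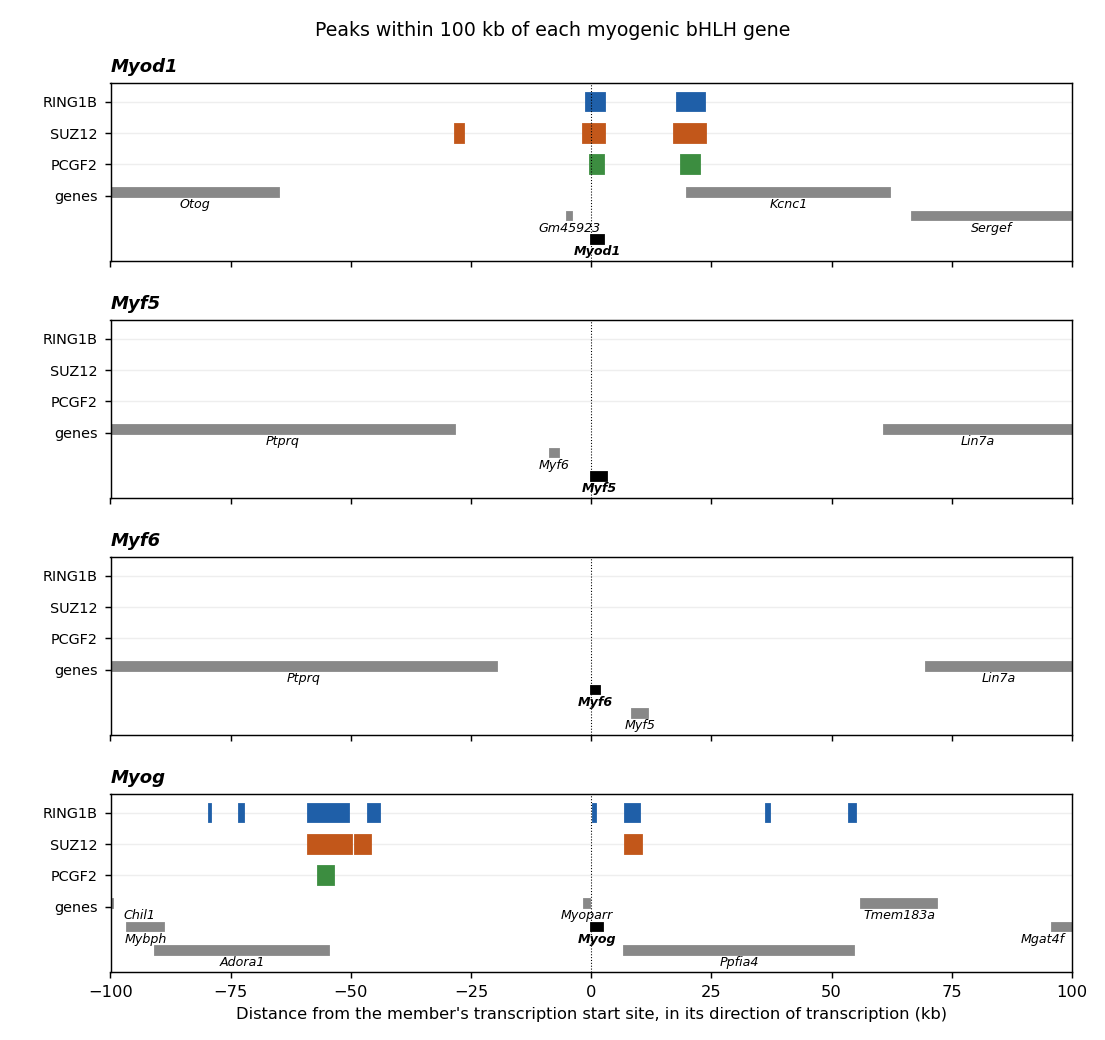
Peaks of RING1B, SUZ12 and PCGF2 and annotated genes within 100 kb of the start site of each myogenic bHLH gene, oriented by the member's transcription; blocks cut off at the edges continue beyond 100 kb. Myog has 8 RING1B peaks in view, Myod1 has 2, and the rows of Myf5 and Myf6 are empty.

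CpG content was compared next, because Polycomb complexes are recruited largely to CpG-rich DNA. Over the 5001 bp of the promoter window, Myod1 had 156 CpGs, a GC content of 54.7% and an observed/expected ratio of 0.418. Myf5 had 101 CpGs, 46.8% GC and a ratio of 0.368. Myf6 had 67 CpGs, 42.0% GC and a ratio of 0.304. Myog had 71 CpGs, 52.6% GC and a ratio of 0.206. In order of the ratio the members were Myod1, Myf5, Myf6 and Myog, and 66.9%, 56.8%, 45.0% and 25.9% of all genes had a lower value. The order of the members by CpG ratio was not the order by binding, since Myog, with RING1B, had the lowest value and Myf5 and Myf6, without it, had higher ones.

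Over all genes the median ratio was 0.489 for those with all 3 proteins, 0.426 for those with RING1B alone and 0.196 for those with none. Myod1, at 0.418, was inside the middle range of its class, whose quartiles were 0.406 and 0.587. Myf5, at 0.368, and Myf6, at 0.304, were both above the upper quartile of 0.266 of the genes with none. Myog, at 0.206, was below the lower quartile of 0.351 of the genes with RING1B alone and was near the median of the genes with none.

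**Figure D3:**
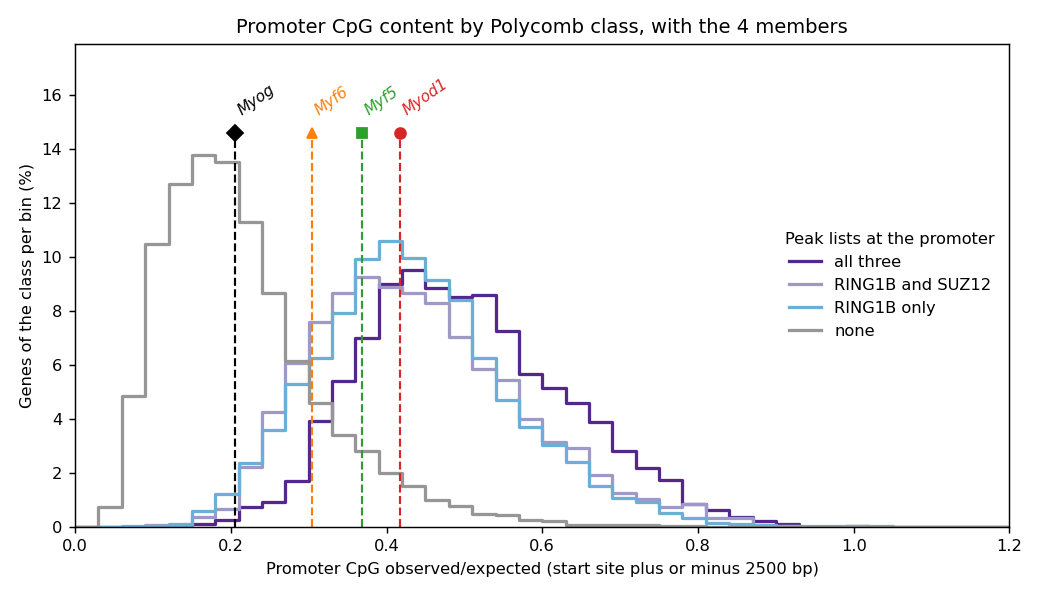
Distribution of the promoter CpG observed/expected ratio (horizontal axis) as the percentage of genes of each binding class per bin (vertical axis), with dashed lines at the 4 members. Myog, at 0.206, lies where genes with no peak are most frequent, and Myod1, at 0.418, where genes with peaks are.

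When all genes were put into 10 groups of equal size by this ratio, from group 1 with the lowest values, the share with RING1B at the promoter rose from group to group. Myod1 was in group 7, in which 84.5% of genes had RING1B, 35.3% had SUZ12, 19.4% had PCGF2 and 19.4% had all 3. Myf5 was in group 6, in which 75.3% had RING1B and 32.2% had SUZ12. Myf6 was in group 5, in which 53.7% had RING1B and 22.7% had SUZ12. Myog was in group 3, in which 8.82% had RING1B and 2.67% had SUZ12. The absence of RING1B at Myf5 was therefore the less common state for its CpG content, and so was the presence of RING1B at Myog. In this window the presence of RING1B at Myod1 was the common state, while PCGF2 was found at a minority of genes of similar CpG content.

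**Figure D4:**
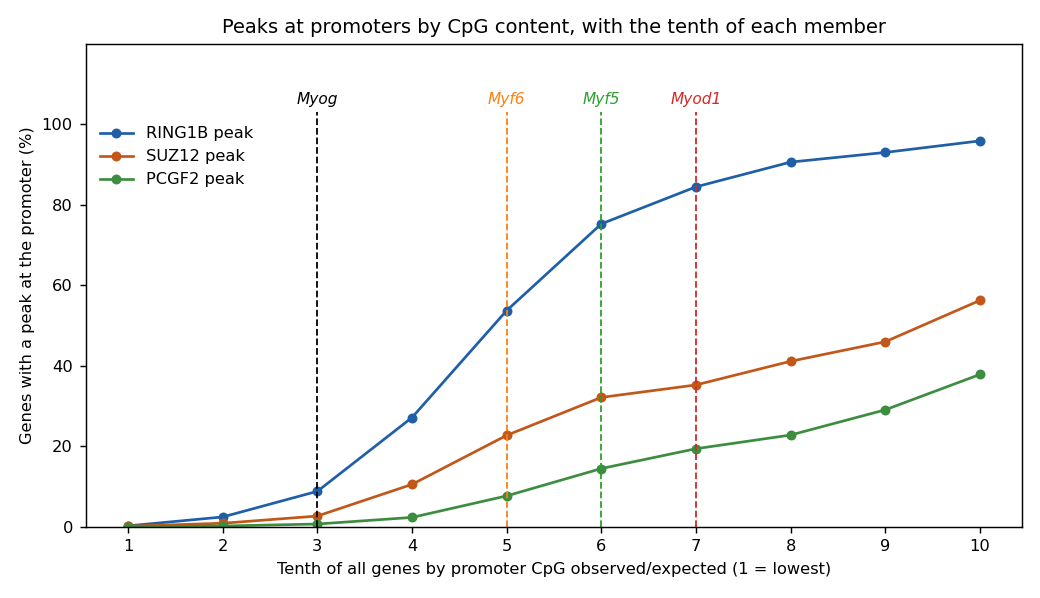
Percentage of genes with a RING1B, SUZ12 or PCGF2 peak at the promoter (vertical axis) in 10 groups of genes of equal size by promoter CpG observed/expected ratio (horizontal axis), with dashed lines at the group of each member. The RING1B share is 8.82% in the group of Myog and 75.3% in that of Myf5.

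The place of Myog among the members depended on the width of sequence that was counted. In 1000 bp on each side of the start site the ratios were 0.536 for Myod1, 0.376 for Myf5, 0.287 for Myf6 and 0.296 for Myog. In 500 bp on each side they were 0.480, 0.406, 0.377 and 0.353. With these narrower windows Myog and Myf6 were in group 4 of 10 in both cases, in which 22.4% and 21.1% of genes had RING1B. Myf5 was in group 5 in both, in which 54.3% and 53.9% had RING1B. Myod1 was in group 6 at 1000 bp and in group 5 at 500 bp, in which 77.0% and 53.9% had RING1B. RING1B thus remained a minority state in the group of Myog. In the group of Myf5, and in that of Myod1 at 500 bp, bound genes made up little more than the unbound ones. The absence of RING1B at Myf6 was the more common state with both narrower windows. When bases in repeats were left out, the ratios over the full window were 0.450, 0.364, 0.311 and 0.223, in the same order as with all bases.

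At all 4 members the CpGs were more numerous downstream of the start site than upstream, as at 65.4% of 31647 annotated start sites. In the 2500 bp upstream and the 2500 bp downstream, Myod1 had 34 and 122 CpGs, Myf5 43 and 58, Myf6 18 and 49, and Myog 25 and 46. The downstream to upstream ratio was 3.59 at Myod1, which exceeded that at 95.4% of start sites, 2.72 at Myf6, 1.84 at Myog and 1.35 at Myf5, against a median of 1.28. Exon 1 alone held 63 CpGs in 826 bp at Myod1, 23 in 704 bp at Myf5, 14 in 538 bp at Myf6 and 21 in 523 bp at Myog. Per kb this was 76.3 at Myod1, 32.7 at Myf5, 26.0 at Myf6 and 40.2 at Myog. Both genes with a RING1B peak thus had a denser exon 1 than the pair without. By the observed/expected ratio of exon 1, Myog was little above Myf5. The values were 0.760 at Myod1, 0.389 at Myf5, 0.346 at Myf6 and 0.422 at Myog. Over the full promoter window the order of Myog and Myf5 was reversed, at 0.206 and 0.368. The contrast in exon 1 rests on 4 genes, of which Myf5 and Myf6 do not count as independent.

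A stretch that met the usual definition of a CpG island, with GC content of at least 50% and a ratio of at least 0.6 in windows of 200 bp, was found in the promoter window of 3 of the 4 members and at 71.4% of all genes. It was 800 bp long at Myod1, from 100 to 899 bp downstream of the start site, 360 bp long at Myf5, from 291 to 650 bp, and 240 bp long at Myf6, from 251 to 490 bp. Myog had none. Of genes with no such stretch 2.98% had RING1B at the promoter, of genes with one of 200 to 490 bp 29.7%, and of genes with one of at least 500 bp 86.5%. By this measure the absence of RING1B at Myf5 and Myf6 was the more common state, in contrast to the comparison by ratio over the full window. Myog again was bound where binding was rare.

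The peaks were on average denser in CpGs than the rest of their promoter windows. At Myod1 the RING1B peak took in 145 of the 156 CpGs of the window, or 39.9 per kb inside the peak and 8.04 per kb outside it. The PCGF2 peak, which left out more of the upstream side, took in 133 at 48.0 per kb, with 10.3 per kb outside. At Myog the RING1B peak took in 20 of 71 CpGs, or 27.5 per kb inside and 11.9 per kb outside. The peak at Myog did not cover all of the dense part. The 250 bp just before the start site and the 250 bp from it onward, both outside the peak, held 7 CpGs each. From 250 to 499 bp downstream, mostly under the peak, there were 12. From 500 to 749 and from 750 to 999 bp, wholly under it, there were 5 and 4. Over the whole peak the CpG ratio was 0.495 for RING1B, 0.464 for SUZ12 and 0.554 for PCGF2 at Myod1, and 0.350 for RING1B at Myog.

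The partners and the inhibitors of the myogenic factors were then examined in the same way. For these and the lists that follow, the shares over all genes were 53.2% for RING1B, 24.8% for SUZ12 and 13.4% for all 3 proteins. The E proteins, with which these factors dimerise, all had RING1B, at 3 of 3 genes, and 1 of 3, Tcf12, had all 3 proteins, with peaks of 4033 bp for RING1B, 4063 bp for SUZ12 and 2914 bp for PCGF2. Tcf3 and Tcf4 had RING1B alone. The peak at Tcf4 was 286 bp wide and contained no start site, and with peaks of at least 1000 bp the count was 2 of 3. By CpG ratio Tcf3 was in group 8 and Tcf4 and Tcf12 were in group 10, in which 90.6% and 95.9% of genes had RING1B. The count of 3 of 3 thus lies near the share among genes of similar CpG content. The Id proteins bind E proteins and keep them from the myogenic factors. All 4 Id genes had RING1B and SUZ12, and 3 of them, Id2, Id3 and Id4, also had PCGF2, while Id1 did not. In CpG group 9, which holds the median ratio of the Id genes (0.519), 93.0% of genes had RING1B. SUZ12 was at 46.0% of that group and all 3 proteins were at 28.9%. The RING1B count of 4 of 4 thus lies near the share among genes of similar CpG content. RING1B at Id2 and Id3 covered 9572 and 9628 bp, against 3907 bp at Myod1.

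Of 16 regulators that act upstream of the myogenic factors in somites and limb, or in related mesoderm, 14 had RING1B, 14 had SUZ12 and 11 had all 3 proteins. Among the 11 were Pax3, Pax7, Eya1, Eya2, Meox2, Lbx1, Pitx3, Msc and Tcf21. RING1B was widest at Pax3 (36873 bp), a paired-domain factor of muscle progenitors. Six4, Meox1 and Tcf15 had RING1B and SUZ12 without PCGF2. Tbx6 and Msgn1, factors of the presomitic mesoderm, had none, with CpG ratios of 0.265 and 0.217. Most genes of this list, 11 of 16, thus had the same set of proteins as Myod1, and 2 had none, as at Myf5 and Myf6. Over all genes 53.2% had RING1B, 24.8% had SUZ12 and 13.4% had all 3. In CpG group 8, which holds the median ratio of this list (0.461), these shares were 90.6%, 41.1% and 22.7%.

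Among 10 genes of MEF2 factors and cofactors of muscle transcription, 9 had RING1B and SUZ12 and 4 had all 3 proteins, namely Mef2c, Tead4, Vgll2 and Smarcd3. Mef2b had none of the 3 proteins. In CpG group 8, which holds the median ratio of these 10 genes (0.458), 90.6% of genes had RING1B and 22.7% had all 3, against 53.2% and 13.4% of all genes. Of 33 genes of differentiated muscle, such as those of myosins, troponins and acetylcholine receptor subunits, 26 had none, and the median CpG ratio of the list was 0.235. None of the proteins was found at 46.5% of all genes. In CpG group 4, which holds that median, 27.2% of genes had RING1B and 2.29% had all 3. RING1B was at 7 of the 33, of which Des, Acta1 and Cacna1s had all 3 proteins and Mylpf, Myl4, Chrng and Ryr1 had RING1B alone. These counts moved with the settings: RING1B was at 14 of 33 with 5000 bp on each side and at 4 with peaks of at least 1000 bp, and all 3 proteins were at 1 with 1000 bp on each side. The RING1B peak in the promoter window of Cacna1s contained the start site of Ascl5 and not that of Cacna1s. The RING1B peak at Acta1 (1707 bp) contained no start site, and that at Des contained the start site of Des. Of the 4 genes of this list with RING1B alone, Chrng (404 bp, ratio 0.231) and Ryr1 (478 bp, 0.214) had a narrow peak and a low ratio, as Myog did. The others, Myl4 (901 bp, 0.448) and Mylpf (2747 bp, 0.453), had wider peaks and higher ratios. The Ryr1 and Myl4 peaks contained a start site of their gene, whereas those at Chrng and Mylpf, like that at Myog, contained none.

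The proneural bHLH genes act in the nervous system as the myogenic ones do in muscle, by dimerising with E proteins to set a lineage. Of 14 such genes, 12 had RING1B and SUZ12 and 11 had all 3 proteins, with a median CpG ratio of 0.556 against 0.336 for the 4 myogenic genes. The RING1B peaks at these 11 genes ran from 6983 bp at Neurod1 to 27876 bp at Neurod2, each wider than the 3907 bp at Myod1. Neurod4 and Neurod6 had none of the proteins, with ratios of 0.114 and 0.311. Over all genes 53.2% had RING1B and 13.4% had all 3. In CpG group 9, which holds the median ratio of the proneural genes, these shares were 93.0% and 28.9%. Neurog3 had a CpG ratio of 0.369, next to the 0.368 of Myf5, and carried all 3 proteins with a RING1B peak of 9789 bp, where Myf5 had no peak. In CpG group 6, which holds both genes, 75.3% of genes had RING1B and 14.4% had all 3 proteins. All 3 proteins at Neurog3 and no RING1B at Myf5 were thus each the less common state. No test was made between the gene lists, which were chosen with results of these data in view.

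**Figure D5:**
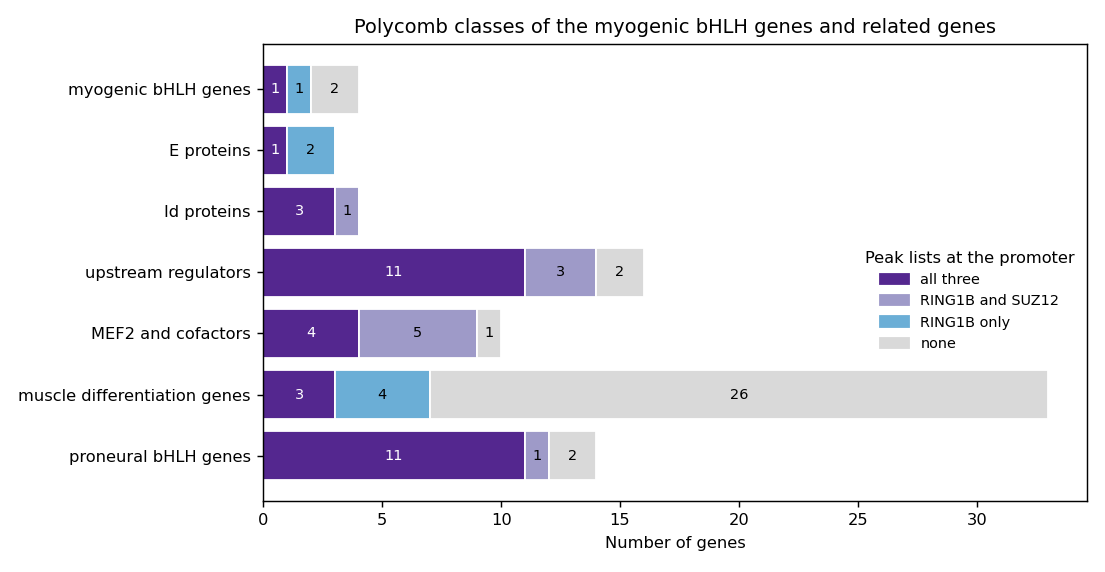
Number of genes (horizontal axis) of each list by the set of peak lists found at the promoter, with the 4 myogenic bHLH genes in the top bar. All 3 proteins were found at 1 of 4 myogenic bHLH genes, 11 of 14 proneural bHLH genes and 3 of 33 muscle differentiation genes, the last being 1 of 33 with 1000 bp on each side. The share over all genes was 13.4%.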

How the data were processed

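Peak positions were used as the authors deposited them: 3 files of chromosome, start and end on mm10, converted to 1-based positions. Per the study's methods, the authors aligned reads with Bowtie 2 to joined mouse and human (spike-in) genomes, kept unique reads without duplicates, and ran MACS2 in broad mode with the input of the same cells as control. SUZ12 and RING1B peaks came from merged replicates and were kept where found in both untreated lines. RING1B peaks without significant loss after tamoxifen in PRC1CKO were removed, and PCGF2 peaks had to occur in every replicate. The RING1B data of PRC1CKO behind that list were not analysed here. The submitters' processing notes also name deepTools. These steps leave presence or absence of a peak, without a signal or fold value.

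Start sites, exons and bases came from RefSeq on GRCm38.p6. A gene with several start sites took its highest CpG ratio and any peak at any of them. Promoter sequences were matched by symbol for 2 of the 4 members. Overlaps were computed with Python 3.11.15, pandas 2.3.3, NumPy 2.4.6 and pysam 0.24.0 and checked on simulated intervals. Genes named are the members, the nearest protein-coding gene on each side, the 3 genes with the most similar peak edges, and list genes with all 3 proteins or unlike most of their list, plus the other list genes and neighbours set beside a member. Members and lists were chosen with earlier results of these data known. Some list genes are counted but not reported by name here.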

Additional observations from a re-analysis of the deposited data

How the results depend on the processing

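The counts of members with each protein were recomputed with promoter windows of 1000 and 5000 bp, the start site alone, the gene body, at least 500 bp shared, peaks of at least 1000 bp, peaks closer than 1000 bp merged, and predicted transcripts added. Of these 32 values 30 stayed the same. The number of members with RING1B was 1 in place of 2 with the start site alone and with peaks of at least 1000 bp, because the peak at Myog begins 282 bp past the start site and is 726 bp wide. Of 12 alternative CpG ratios 3 lay outside the 95% binomial interval of the full-window value. These were Myod1 at 0.536 within 1000 bp, and Myog at 0.296 within 1000 bp and 0.353 within 500 bp. The interval served as a yardstick only, since a reference sequence has no sampling error and the narrower windows lie inside the full one. For the other gene lists, 36 alternatives chosen after seeing the data left 27 counts equal and changed 6 by at most 1.5 times. The other 3 moved further: among 33 muscle differentiation genes, RING1B went from 7 to 14 at 5000 bp and to 4 with peaks of at least 1000 bp, and all 3 proteins from 3 to 1 at 1000 bp. No paired analysis was possible because the peak lists pool their samples and no value comes from a test. For the same reason no replicate could be left out. The lists hold no depth, so a signal too weak to be called cannot be told apart from no signal, nor a weak listed peak from a strong one.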
